A study of Mus musculus with 18 samples.

Results

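In visceral fat of 18 mice, 9 genes that mark the endocrine cells of the pancreatic islet were followed array by array. The list has 10 genes, Ins2, Iapp, Slc30a8 and G6pc2 of the beta cell, Gcg of the alpha cell, Sst of the delta cell, Ppy and Pyy of the PP cell, and Chga and Pcsk2 of all endocrine cells. A gene was taken where a probe set of the array names that gene alone, which gave 9 of the 10 genes among 19938 genes in all, each with 1 probe set. Pcsk2 was not analysed here. The genes were chosen from measured values of these arrays, because some fat arrays carry high signals of the pancreatic enzyme genes Cpb1 and Ctrb1. The signals of the islet genes on those arrays are therefore given as a description without a test. Comparisons between the groups include the same arrays, so their p-values for the islet genes are a description too.

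All mice were male wildtype C57BL/6N animals of 5 to 6 months, and each array holds total RNA of 1 mouse. Controls on standard diet (Con, SD, n = 7) had mock injections of citrate buffer. Diabetic mice on standard diet (STZ, SD, n = 6) and diabetic mice on bezafibrate food (STZ, BEZ, n = 5) had 65 mg/kg streptozotocin i.p. on each of 5 days in a row, at an age of 10 to 16 weeks. Bezafibrate, a fibrate that activates PPAR receptors and lowers plasma lipids, was mixed to the chow at 0.25% or 0.5% (w/w) for 8 weeks, from 2 weeks after the streptozotocin, and the labels do not say which mouse had which strength. Controls on bezafibrate were not analysed here. Values are log2 signals, so a difference of 1 is a 2-fold change.

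The islet is a small cluster of hormone cells inside the pancreas, where it is surrounded by acinar tissue that makes digestive enzymes. Beta cells secrete insulin and amylin, alpha cells glucagon, delta cells somatostatin, and PP cells pancreatic polypeptide. Streptozotocin is a glucose analogue that enters beta cells through the glucose transporter GLUT2 and damages their DNA, so that beta cells are lost while the other hormone cells are largely spared. Islet hormones are not typical products of white fat, and the pancreas of rodents lies spread out within abdominal fat.

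For 8 of the 10 genes the RefSeq promoter table (build GRCm38.p6) holds a start site, with Ins2 and Slc30a8 named only. The 120 bases before the start are shown for the genes that lead their cell type in the data below, Iapp for the beta cell, Gcg for the alpha cell, Sst for the delta cell and Ppy for the PP cell. They run 5′ to 3′ on the strand of the gene and lie at chr6:142298305-142298424 (plus strand), chr2:62483654-62483773 (minus), chr16:23890845-23890964 (minus) and chr11:102101320-102101439 (minus).
Iapp: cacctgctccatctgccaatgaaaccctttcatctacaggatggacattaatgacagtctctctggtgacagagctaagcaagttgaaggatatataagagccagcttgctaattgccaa
Gcg: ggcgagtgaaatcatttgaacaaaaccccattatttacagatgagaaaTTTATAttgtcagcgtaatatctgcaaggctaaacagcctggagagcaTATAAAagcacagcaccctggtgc
Sst: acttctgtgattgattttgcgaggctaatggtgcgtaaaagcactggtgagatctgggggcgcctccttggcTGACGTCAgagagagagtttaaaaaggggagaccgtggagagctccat
Ppy: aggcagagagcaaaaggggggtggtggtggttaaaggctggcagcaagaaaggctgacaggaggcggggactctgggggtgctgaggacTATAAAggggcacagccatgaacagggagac
Capitals mark the TATA box letters TATAAA and the cAMP response element TGACGTCA, searched on both strands. TATAAA begins 24 bases before the start in Gcg and 31 bases before it in Ppy, and Gcg holds the same letters on the other strand further upstream. TGACGTCA begins 48 bases before the start of the table in Sst, which unlike that of the other 3 genes lies inside the RefSeq gene and is not its outer edge. Of 32851 promoter windows of the same length, 6.34% hold TATAAA and 1.24% hold TGACGTCA. Iapp, and the windows of G6pc2, Pyy, Chga and Pcsk2, hold neither set of letters. A match is a description of the letters, and the arrays do not measure binding.

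The arrays were first set in the order of the enzyme genes. Cpb1, which encodes carboxypeptidase B, and Ctrb1, which encodes chymotrypsinogen B, both stood more than 1 above their highest Con, SD value on 5 arrays, which were selected by these signals. Cpb1 and Ctrb1 were at 13.16 and 13.84 on STZ, SD replicate 6, at 12.26 and 13.22 on STZ, BEZ replicate 1, at 10.85 and 11.96 on replicate 2, at 10.60 and 11.83 on replicate 3, and at 9.67 and 11.38 on replicate 4. On all other arrays Cpb1 lay between 4.87 and 5.48 and Ctrb1 between 5.97 and 6.65, and the highest Con, SD values were 5.19 and 6.65. All 5 arrays come from mice given streptozotocin and no Con, SD array is among them, so there is no array with pancreatic enzyme signal and islets that were not exposed to streptozotocin. The highest signal of any probe set on any array was 14.09, so the enzyme genes lie near the top of the scale on STZ, SD replicate 6.

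Probe sets differ in how strongly they respond and in their signal without the transcript, so each gene is compared only with its own mean over Con, SD. A small or absent difference of a dim probe set does not show that the RNA is missing. In whole tissue, fewer cells of a type and less RNA per cell cannot be told apart.

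On STZ, SD replicate 6, 7 of the 9 islet genes were more than 1 above their highest Con, SD value, compared with 2.35% of all 19938 genes, and their median difference from the Con, SD mean was 3.10. Hormone genes of beta, alpha, delta and PP cells were all among them. On the other 4 arrays with high enzyme signal, 0 of 9 passed that margin, compared with 0.316%, 0.281%, 0.201% and 0.366% of all genes on STZ, BEZ replicates 1 to 4. The median difference of the islet genes on those 4 arrays was 0.06, -0.12, -0.07 and -0.06.

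**Figure D1:**
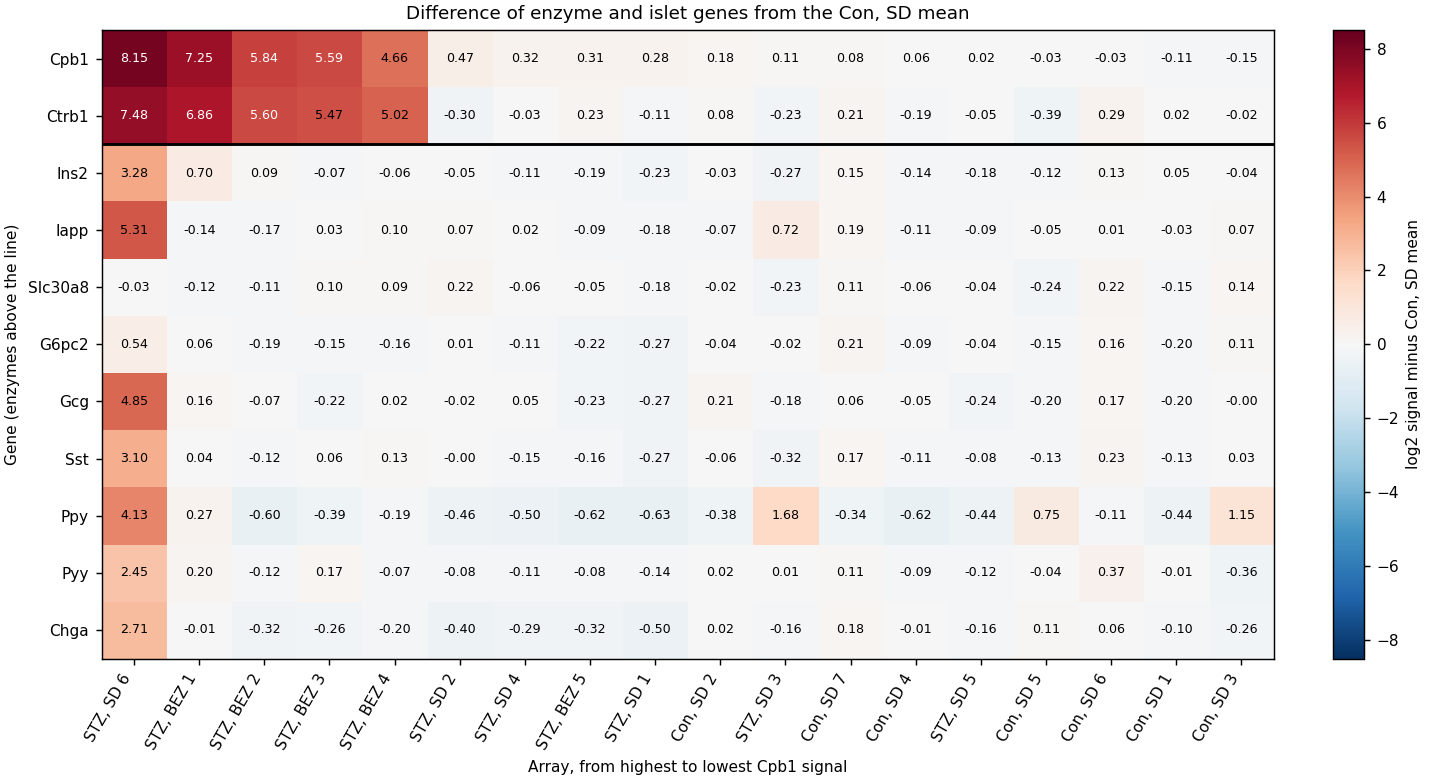
Each cell gives the log2 signal of a gene (row) on an array (column) minus the mean of that gene over the 7 Con, SD arrays, with arrays ordered from the highest to the lowest Cpb1 signal and the 2 enzyme genes above the line. Enzyme genes are high in the first 5 columns, and 7 islet genes are high in the first column, STZ, SD replicate 6, where Slc30a8 and G6pc2 differ by -0.03 and 0.54.

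Of the beta cell genes, Iapp (probe set 10542632), which encodes amylin, was 10.26 on STZ, SD replicate 6, which is 5.31 above the Con, SD mean. The other STZ, SD arrays gave 4.76, 5.02, 5.66, 4.96 and 4.85, and Con, SD ranged from 4.84 to 5.13 with a median of 4.92. STZ, BEZ replicates 1 to 5 gave 4.81, 4.78, 4.98, 5.05 and 4.85, all inside or just below the Con, SD range. Besides replicate 6, STZ, SD replicate 3 alone was above every Con, SD array, by less than 1.

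Ins2 (probe set 10569358), which encodes the insulin precursor, was 9.00 on STZ, SD replicate 6, a difference of 3.28. STZ, SD replicates 1 to 5 gave 5.49, 5.67, 5.45, 5.60 and 5.54, and Con, SD ranged from 5.58 to 5.87 with a median of 5.68. STZ, BEZ replicates 1 to 5 gave 6.42, 5.81, 5.65, 5.66 and 5.53. Ins2 was the single islet gene above its highest Con, SD value on STZ, BEZ replicate 1, the array second in enzyme signal, where it stood 0.70 above the Con, SD mean.

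The other beta cell genes of the list did not pass the margin of 1. G6pc2 (probe set 10472531), the catalytic subunit of the islet glucose-6-phosphatase, was 5.22 on STZ, SD replicate 6, above every Con, SD array, which ranged from 4.48 to 4.89. Slc30a8 (probe set 10424086), which encodes the zinc transporter of the insulin granule, was 5.19 on that array, within the Con, SD range of 4.98 to 5.44. On STZ, BEZ replicate 1 they were at 4.74 and 5.10. Both probe sets stayed between 4.41 and 5.44 on all other arrays.

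Gcg (probe set 10483074), the gene of glucagon and of the gut hormone GLP-1, was 10.35 on STZ, SD replicate 6, a difference of 4.85. The remaining STZ, SD arrays gave 5.22, 5.48, 5.31, 5.54 and 5.26, and Con, SD ranged from 5.30 to 5.70 with a median of 5.49. STZ, BEZ replicates 1 to 5 gave 5.65, 5.43, 5.28, 5.52 and 5.26. The alpha cell gene was thus high on the same single array as Iapp and Ins2, and no STZ, BEZ array was above the Con, SD range.

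Sst (probe set 10438730), which encodes somatostatin, was 9.99 on STZ, SD replicate 6, a difference of 3.10, and Con, SD ranged from 6.76 to 7.12 with a median of 6.83. STZ, SD replicates 1 to 5 gave 6.62, 6.89, 6.57, 6.74 and 6.81, and STZ, BEZ replicates 1 to 5 gave 6.93, 6.77, 6.95, 7.02 and 6.74. Apart from replicate 6, no array of the diabetic groups exceeded the Con, SD range.

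Ppy (probe set 10391555), the gene of pancreatic polypeptide, was 11.79 on STZ, SD replicate 6, a difference of 4.14. It also varied among the remaining arrays, with an SD of 0.76 over the 13 arrays without high enzyme signal. The next largest SD of a member on those arrays was 0.23, for Iapp. Con, SD replicates 1 to 7 gave 7.22, 7.28, 8.80, 7.03, 8.40, 7.54 and 7.31, and STZ, SD replicates 1 to 5 gave 7.02, 7.20, 9.33, 7.15 and 7.22. STZ, BEZ replicates 1 to 5 gave 7.93, 7.05, 7.26, 7.47 and 7.03. The 3 arrays that were high next to replicate 6 are Con, SD replicates 3 and 5 and STZ, SD replicate 3, none of which has high enzyme signal. On these 3 arrays the lipocalin genes of the epididymis, the sperm duct whose fat pad is a visceral depot, were at their highest, with Lcn8 at 13.42, 13.43 and 13.26 and Lcn5 at 12.79, 12.85 and 13.20. Lcn8 was also high on Con, SD replicate 6 (12.27) and STZ, SD replicate 4 (10.13), where Ppy was 7.54 and 7.15. On STZ, SD replicate 6 Lcn8 and Lcn5 were at 6.08 and 7.09. Iapp was 5.02, 4.89 and 5.66 on Con, SD replicates 3 and 5 and STZ, SD replicate 3, with a highest Con, SD value of 5.13. The part of epididymal RNA in the Ppy and Iapp signals was not tested.

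Pyy (probe set 10391561), a peptide hormone gene of PP and gut endocrine cells, was 9.41 on STZ, SD replicate 6, a difference of 2.45, with Con, SD between 6.60 and 7.33. The other STZ, SD arrays lay between 6.82 and 6.97, and the STZ, BEZ arrays gave 7.16, 6.84, 7.13, 6.89 and 6.88. Unlike Ppy, it was not high on the 3 arrays with the most epididymal signal, where it was 6.60, 6.92 and 6.97.

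Chga (probe set 10397882), which encodes chromogranin A of hormone granules in all endocrine cells, was 9.26 on STZ, SD replicate 6, a difference of 2.71. Con, SD replicates 1 to 7 gave 6.44, 6.57, 6.29, 6.53, 6.66, 6.61 and 6.72, STZ, SD replicates 1 to 5 gave 6.04, 6.14, 6.39, 6.26 and 6.39, and STZ, BEZ replicates 1 to 5 gave 6.53, 6.22, 6.29, 6.35 and 6.22. Without replicate 6 the diabetic arrays lay between 6.04 and 6.53, which overlaps the control range of 6.29 to 6.72.

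**Figure D2:**
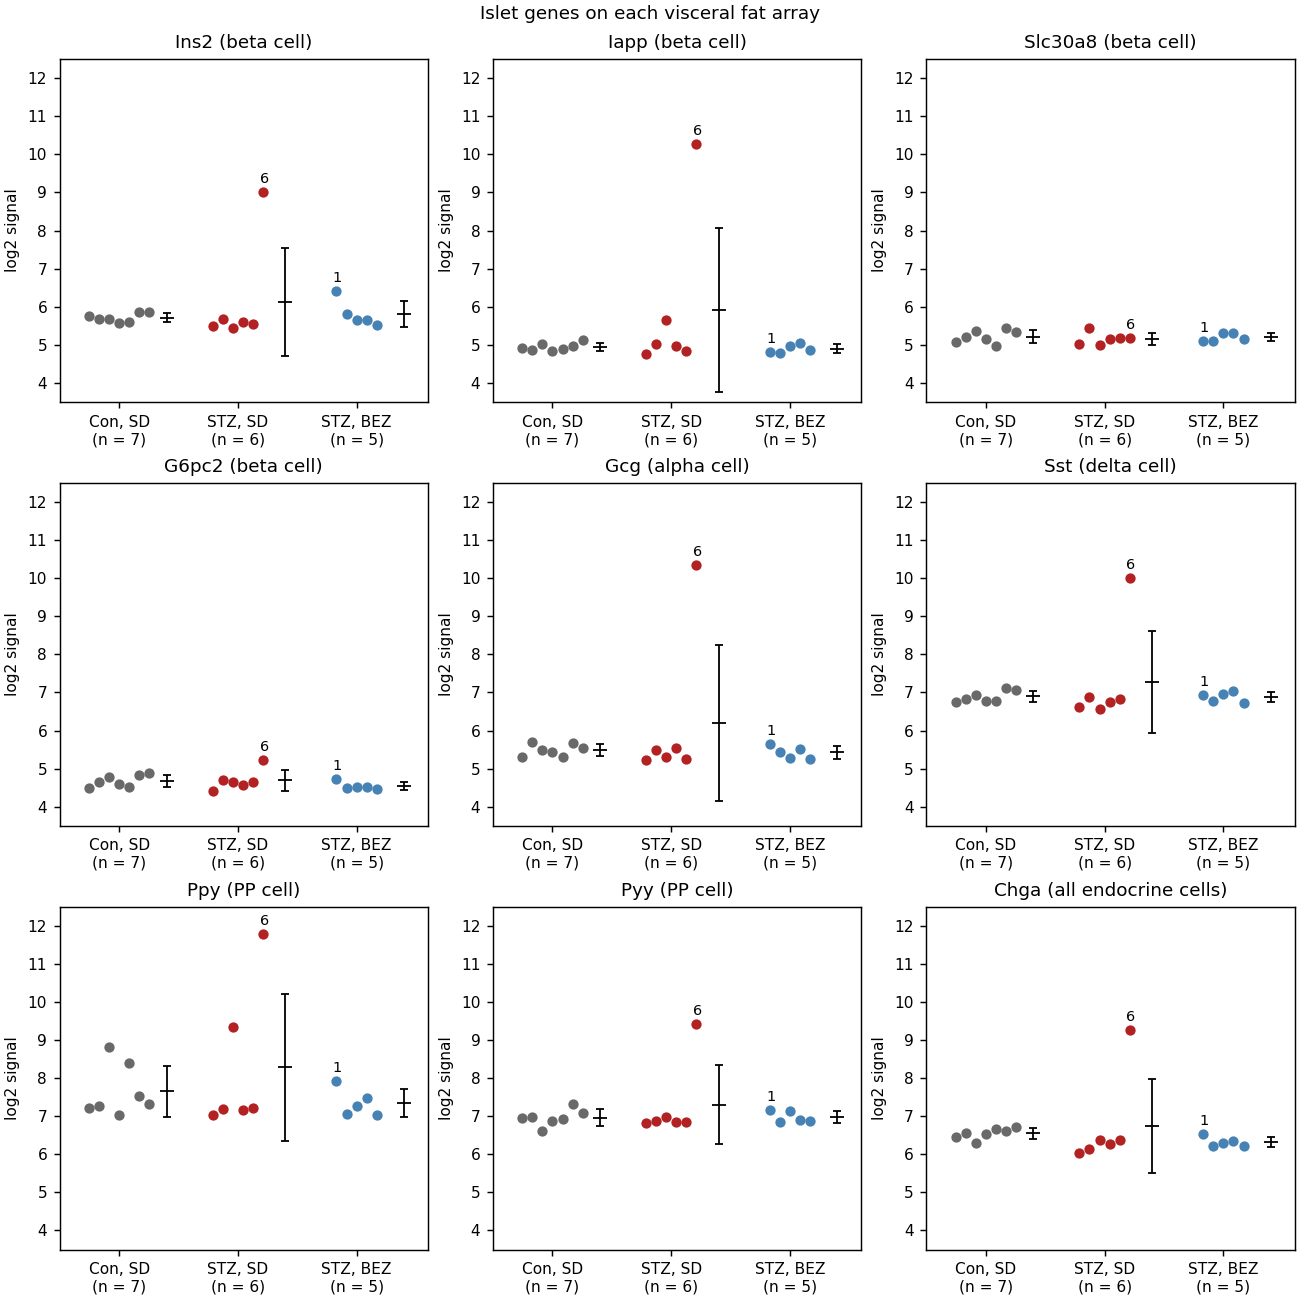
Points show the log2 signal of each array for the 9 islet genes, by group in order of replicate number, with the mean and SD of the group as a bar at its right, and the numbers mark STZ, SD replicate 6 and STZ, BEZ replicate 1. Replicate 6 stands apart from the other arrays for 7 genes, from 9.00 for Ins2 to 11.79 for Ppy, while Ppy is also raised on single Con, SD and STZ, SD arrays.

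The question of beta cell against other hormone genes after streptozotocin could be read on 1 array only. On STZ, SD replicate 6 the differences of the beta cell genes were 5.31 (Iapp), 3.28 (Ins2), 0.54 (G6pc2) and -0.03 (Slc30a8), and those of the alpha, delta and PP cell genes were 4.85 (Gcg), 3.10 (Sst), 4.14 (Ppy) and 2.45 (Pyy). The largest and the smallest of these differences both belong to beta cell genes. By the size of the difference on that array, the genes ranked 47 (Iapp), 51 (Gcg), 62 (Ppy), 95 (Ins2), 107 (Sst), 139 (Chga) and 164 (Pyy) of 19938, and G6pc2 and Slc30a8 ranked 1826 and 9368. Without an array of islets not exposed to streptozotocin, and with probe sets that respond differently, beta cell loss on that array cannot be told apart from a low response of the probe sets.

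STZ, SD replicate 6 and STZ, BEZ replicate 1 were then set side by side, gene by gene. Cpb1 and Ctrb1, by which the arrays were selected and which lie near the top of the scale, were 0.90 and 0.62 higher on the former. Of the islet genes, Iapp was 5.45 higher, Gcg 4.69, Ppy 3.86, Sst 3.06, Chga 2.72, Ins2 2.58, Pyy 2.25, G6pc2 0.49 and Slc30a8 0.09. Some other acinar genes differed between the arrays as much as the islet genes did, with 5.91 for Spink1, a trypsin inhibitor, 4.86 for Try4, a trypsin, and 4.66 for Ctrc, chymotrypsin C. The 3 acinar genes with the largest differences from Con, SD on STZ, SD replicate 6, namely Pnliprp1 (8.69), Try4 (8.44) and Reg1 (8.30), differed from Con, SD by 6.74, 3.58 and 5.99 on STZ, BEZ replicate 1. Of 27 acinar genes measured, 22 had a difference from Con, SD above that of every islet gene on STZ, SD replicate 6 (5.41 to 8.69), and on STZ, BEZ replicate 1 their differences ran from 0.75 to 7.25. A further 4 had differences on STZ, SD replicate 6 within the range of the 7 islet genes, namely the acinar transcription factor genes Ptf1a, Rbpjl, Bhlha15 and Nr5a2, with 3.58 to 5.18. On STZ, BEZ replicate 1 these 4 differed from Con, SD by -0.04 to 0.49, compared with -0.14 to 0.70 for the 7 islet genes. The remaining gene, Cuzd1, varied widely among the control arrays. These 4 genes were picked by their range on STZ, SD replicate 6, so the overlap with islet genes there was fixed in advance. On STZ, BEZ replicate 1 the ranges overlapped as well. The part of bezafibrate in the difference between the arrays was not tested.

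**Figure D3:**
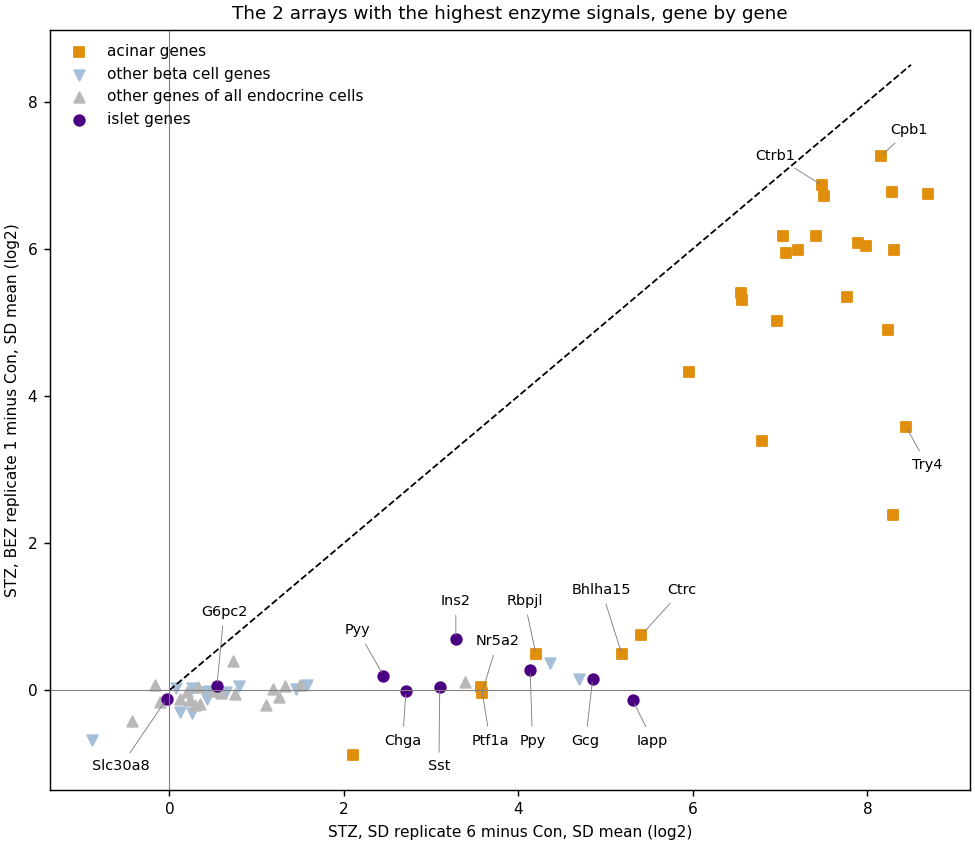
Each point is a gene, with its difference from the Con, SD mean on STZ, SD replicate 6 on the horizontal axis and on STZ, BEZ replicate 1 on the vertical axis, both on the log2 scale, and the dashed line marks equal differences. Cpb1 and Ctrb1 lie near the line, and other acinar genes such as Try4 (8.44 and 3.58) and Ctrc (5.41 and 0.75) lie far below it. The islet genes and the 4 acinar transcription factor genes lie between -0.14 and 0.70 on the vertical axis, with Ins2 the highest.

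Other genes of the islet were counted from wider lists. Of 16 other beta cell genes listed, 14 were measured. On STZ, SD replicate 6, 4 of the 14 were more than 1 above the highest Con, SD array, compared with 2.35% of all genes. The median difference over the list was 0.44. The largest differences were those of Ero1b, an oxidase of protein folding in the endoplasmic reticulum (4.70), and Glp1r, the GLP-1 receptor (4.36). Pdx1, a transcription factor of pancreas development and the mature beta cell, followed with 1.57. The median difference of the acinar genes was 7.20 on the same array, and the cell source of these signals was not tested. Slc2a2, which encodes the GLUT2 transporter, was at 6.86 compared with 6.16 to 6.77 in Con, SD, and Mafa, a beta cell transcription factor, was at 7.18 compared with 6.61 to 6.93. Both were among 10 of the 14 genes above every Con, SD array, compared with 4197 of all 19938 genes. Nkx6-1, Abcc8, Gjd2 and Sytl4 lay within their Con, SD ranges, with differences of 0.08, 0.26, 0.12 and -0.89. On STZ, BEZ replicate 1, 0 of the 14 passed the margin, compared with 0.316% of all genes.

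Of 19 other genes common to endocrine cells, 5 passed the margin on STZ, SD replicate 6, and 2.35% of all genes did. The median difference of the 19 genes was 0.51. The 5 were led by Ptprn2, a phosphatase-like protein of hormone granules (3.38), Resp18, a protein of neuroendocrine cells (1.50), and Scg2, a secretogranin (1.32). Among 7 other genes of alpha and delta cells measured of 10 listed, 0 passed, and the largest differences were 0.63 (Hhex), 0.21 (Ttr) and 0.06 (Irx2). Of 8 hormones of the gut and the epsilon cell, 0 passed, with the largest differences being 0.38 (Sct), 0.33 (Cck) and 0.29 (Nts).

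The tissue label and other cell types were checked on the same arrays. Markers of white adipocytes had a high mean log2 signal over 9 genes on every array. It was 11.81 to 12.54 in Con, SD, 12.34 to 12.53 in STZ, BEZ, and 11.24 to 12.55 in STZ, SD replicates 1 to 5. On STZ, SD replicate 6 it was 10.29, and Lep, the leptin gene, was at 6.64, compared with a Con, SD mean of 12.15. Lep differed by -3.83 ± 0.71 in STZ, SD vs Con, SD (limma adjusted p = 0.00904). It was the only gene of the 9 called there, where 10.3% of all genes were called. Genes of lymph node cells were high on the array with the islet signal. There 5 of 6 genes were more than 1 above the highest Con, SD array, compared with 2.35% of all genes. Ms4a1, Cd79a and Cr2, genes of B cells, were at 9.63, 9.23 and 8.59 there. The mean signal over all 6 genes of the list was 9.54, compared with 6.24 to 7.00 in Con, SD. STZ, BEZ replicate 4, with a lymph node list signal of 7.80, had islet genes between -0.20 and 0.13 of their Con, SD means.

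Of 7 duct genes, Muc1, a mucin of many epithelia, was at 11.41 on STZ, SD replicate 6 and 6 genes did not pass the margin. Of all genes 2.35% passed it on that array. For 8 genes of sympathetic nerve and chromaffin cells, which also hold chromogranin A, 0 passed on that array, with 0.40 (Snap25), 0.40 (Th) and 0.35 (Stmn2) as the largest differences. The mean of 4 epididymis genes was 6.33 on that array and 7.21 to 13.04 in Con, SD.

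**Figure D4:**
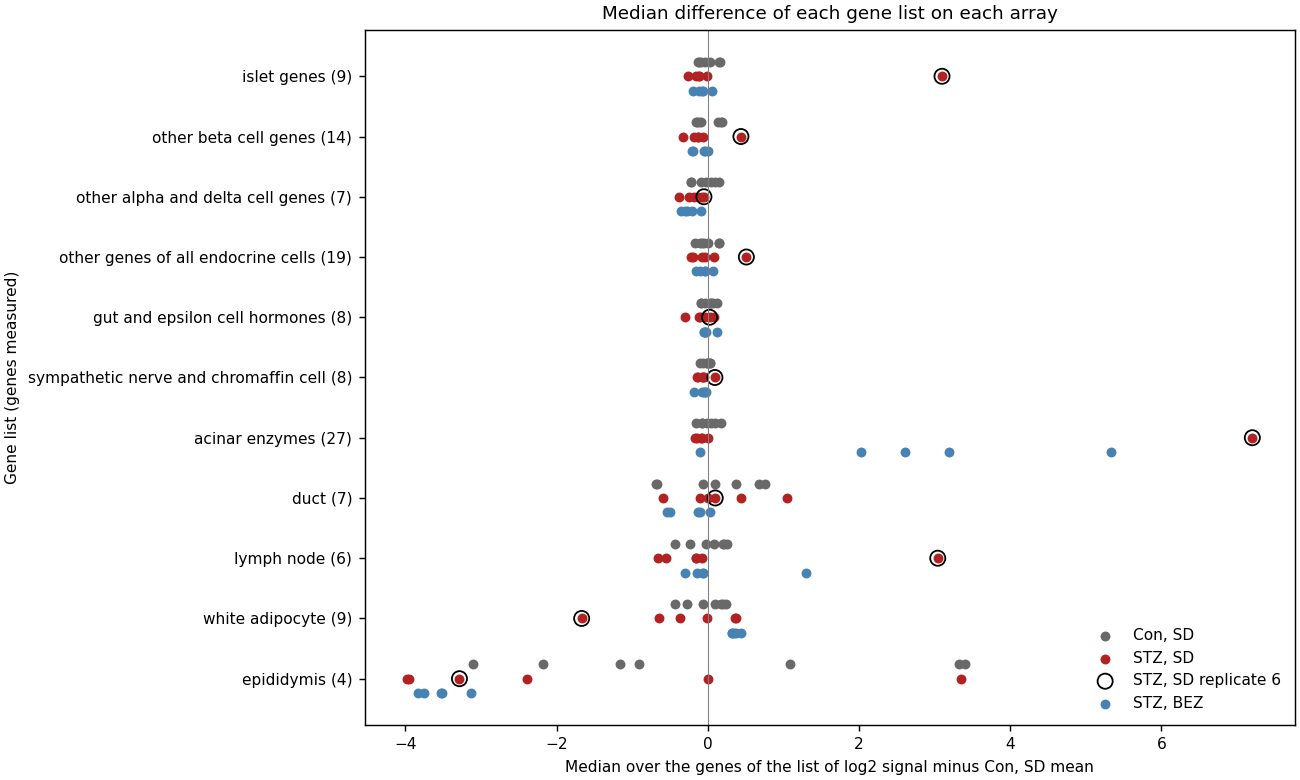
Points give, for each gene list and array, the median over the genes of the log2 signal minus the Con, SD mean, with colours for the 3 groups, a ring around STZ, SD replicate 6 and the number of measured genes in brackets. On the ringed array the islet genes (3.10), acinar genes (7.20) and lymph node genes (3.04) are high and white adipocyte genes (-1.67) are low, while acinar genes are also high on 4 STZ, BEZ arrays and lymph node genes are at 1.30 on STZ, BEZ replicate 4.

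For each islet gene that stood out, the 3 genes with the most similar profile over the 18 arrays were found by the root-mean-square difference of log2 signals less the Con, SD mean. For Gcg they were Glp1r (0.21), Bhlha15 (0.21) and Tmed11 (0.22), for Iapp Sostdc1 (0.20), Tmed11 (0.22) and Aldh1l2 (0.24), and for Ins2 Ptprn2 (0.17), 1810010K12Rik (0.18) and Lrrc7 (0.18). For Sst they were Cabp2 (0.10), 1810010K12Rik (0.10) and Ptprn2 (0.11), for Pyy Slc12a8, Grpr and Shank1 (0.17 each), and for Chga Homer2 (0.19), Nphs1 (0.20) and Slc7a3 (0.21). Ppy was matched less closely, by Fkbp11 (0.43), Ero1b (0.44) and Slamf6 (0.50). No islet gene of the list was among the nearest genes of another, and Bhlha15 is an acinar transcription factor gene, so a close profile here says that a gene is high on STZ, SD replicate 6 by a like amount.

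Between the groups of the design, no islet gene passed the test. In a limma fit over all genes and arrays, at a Benjamini-Hochberg adjusted p under 0.10, 0 of 9 were changed in STZ, SD vs Con, SD, where 10.3% of all genes were, 0 of 9 in STZ, BEZ vs STZ, SD, where 0.707% were, and 0 of 9 in STZ, BEZ vs Con, SD, where 5.95% were. At an unadjusted p under 0.05 the count was also 0 in each comparison, and the share of all genes at that threshold was not counted. The comparisons share their groups, so their values are not independent. The fit also shares 1 spread for each gene over the 3 groups. STZ, SD replicate 6 thus widens the standard errors of the 7 islet genes high on it, also in STZ, BEZ vs Con, SD.

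In STZ, SD vs Con, SD the median difference of the islet genes was 0.38, compared with -0.03 over all genes. Iapp differed by 0.97 ± 0.64 (standard error, limma adjusted p = 0.445), Gcg by 0.70 ± 0.61 (limma adjusted p = 0.58) and Ins2 by 0.41 ± 0.43 (limma adjusted p = 0.656). The SD of Iapp in STZ, SD was 2.15 (n = 6), compared with 0.10 in Con, SD (n = 7). These means rest on replicate 6. Without that array the difference of Iapp was 0.11, that of Gcg -0.13 and that of Ins2 -0.17, none of them past the test. Replicate 6 raised the spread as well as the means, so a missing call does not show equal levels.

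In STZ, BEZ vs STZ, SD, whose reference group includes replicate 6, Iapp differed by -1.03 ± 0.70, Gcg by -0.76 ± 0.67 and Ins2 by -0.31 ± 0.47 (limma adjusted p = 0.683, 0.77 and 0.885). Without replicate 6 these differences were -0.16, 0.07 and 0.26. In STZ, BEZ vs Con, SD the median difference of the islet genes was -0.05, and that of Ins2 was 0.09 ± 0.46 (limma adjusted p = 0.943).

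Chga was the one islet gene whose call depended on the arrays and the test. In STZ, SD vs Con, SD it differed by 0.20 ± 0.38 (limma adjusted p = 0.819). Without STZ, SD replicate 6 it fell by 0.30 with a limma adjusted p of 0.0408, in a fit that called 14.5% of all genes, and without all 5 arrays of high enzyme signal the adjusted p was 0.0808, in a fit that called 9.07%. In STZ, BEZ vs Con, SD it differed by -0.22 ± 0.39 (limma adjusted p = 0.821). Its SD was 0.13 in STZ, BEZ and 0.14 in Con, SD, but 1.24 in STZ, SD, which enters the spread of that fit. A fit on STZ, BEZ and Con, SD alone gave a limma adjusted p of 0.129. For STZ, BEZ vs Con, SD, SAM, a test that ranks genes by a difference over their own spread, called Chga at a false discovery rate of 10%. SAM also called 27.5% of all genes there. An exact two-sided permutation test of the array labels gave p = 0.029 for Chga without adjustment. This was the only exact p under 0.05 among the 27 differences of islet genes, and the test was not run over all genes. The 5 STZ, BEZ arrays were all below the Con, SD mean of 6.54.

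Of the 4 wider islet lists, genes passed only in STZ, SD vs Con, SD, where 4 of 48 were called (8.33%), compared with 10.3% of all genes. Rbp4, a retinol carrier made by adipocytes and by delta cells, fell by 1.23 ± 0.35 (limma adjusted p = 0.0481), the only one called of the 7 genes of its list. Of the 19 genes common to endocrine cells, 3 rose, Isl1, a homeobox gene, by 0.77 ± 0.25 (limma adjusted p = 0.0789), Cpe, a carboxypeptidase of prohormone processing, by 0.72 ± 0.25 (limma adjusted p = 0.0947), and Scg5, a chaperone of prohormone convertase 2, by 0.36 ± 0.12 (limma adjusted p = 0.0848). The median of that list was -0.04. None of these 4 calls held in a fit on the 2 groups compared, with limma adjusted p = 0.115 for Rbp4, 0.112 for Isl1, 0.177 for Cpe and 0.185 for Scg5. With 1 array left out in turn, Scg5 was called in 5 and Cpe in 3 of 18 fits. On STZ, SD replicate 6 Cpe was at 8.59, within its Con, SD range of 8.47 to 9.09, and Rbp4 was at 9.57, below its Con, SD range of 11.92 to 12.84. Of 14 other beta cell genes and 8 gut and epsilon cell hormones, 0 passed in any comparison. Of these genes 0 had an unadjusted limma p under 0.05, a threshold at which the share of all genes was not counted.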

How the data were processed

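Visceral fat RNA of 18 mice was hybridised to Affymetrix Mouse Gene 1.0 ST arrays, 1 array for each mouse, which the labels call biological replicates. Per the labels, the authors summarised the arrays by RMA in Affymetrix Expression Console 1.2, and the deposited table holds log2 signals of 35556 probe sets. RMA equalises the probe signals between arrays before it summarises them. The summarised signals kept array medians from 6.76 to 6.87, and differences of dim probe sets are understated. All 18 columns were used, and 0 were left out. Of the probe sets, 21789 have a single symbol, and the one with the highest mean was kept for each of 19938 genes. No filter on low values was applied.

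Groups were compared with limma 3.58.1 (R 4.3.3) in a single fit over 3 groups, with p-values adjusted over all genes (Benjamini-Hochberg) and a call at an adjusted p under 0.10, after the false discovery rate of 10% in the methods. The fit had 15 residual degrees of freedom, and its precision is limited by the number of arrays. The script was tested on simulated data. Arrays with high enzyme signal were described one by one, with no average or test over them as a set. They stayed in their groups in the comparisons between groups, as STZ, SD replicate 6 and STZ, BEZ replicates 1 to 4. The members and lists were chosen with earlier results of these data known.

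The text names all members, Cpb1 and Ctrb1, the 3 genes of each wider list with the largest difference on the array with the highest Cpb1 signal, and the 3 genes nearest in profile to each member that stood out. Slc2a2, Mafa, the 4 acinar transcription factor genes, Ctrc, Spink1, Cuzd1 and the called genes of the wider lists were added after their values were seen. Alternatives were a threshold of 0.05, SAM with 100 permutations, exact permutation of the arrays, all probe sets, probe set means, a filter on dim genes, quantile normalization, array medians set to 0, trended and robust variance, array weights, only the groups compared, blocks by replicate number, and each array or the 5 arrays of high enzyme signal left out. The study's methods and the labels differ in the streptozotocin dose, in the age, in whether controls were injected, and in whether the chow had a single bezafibrate strength, and the labels were followed.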

Additional observations from a re-analysis of the deposited data

Results flagged for a closer look

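Among 27 combinations of an islet gene and a group, 8 values lay far from the others of their group by Dixon's ratio of the gap to the range. Chance sets apart about 1 group in 20 where genes are not chosen by their values, but the islet genes were chosen from these arrays, so the ratios are a description and no test. Of these, 7 were on STZ, SD replicate 6, with ratios of 0.941 for Pyy, 0.939 for Ins2, 0.937 for Gcg, 0.907 for Sst, 0.893 for Chga, 0.836 for Iapp and 0.653 for G6pc2. The signals behind them were 9.41, 9.00, 10.35, 9.99, 9.26, 10.26 and 5.22. Ppy on that array did not reach the critical ratio, since STZ, SD replicate 3 was also high at 9.33. The eighth value was G6pc2 on STZ, BEZ replicate 1, with a ratio of 0.748 at a signal of 4.74, which lies within the Con, SD range of 4.48 to 4.89.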

How the results depend on the processing

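The counts by array kept their values under probe set means, array medians set to 0, quantile normalization and the Con, SD median as reference. The median difference of the islet genes moved under quantile normalization to 3.36 on STZ, SD replicate 6 and 0.18 on STZ, BEZ replicate 1. The count of islet genes called in STZ, SD vs Con, SD became 1 (Chga) without the 5 arrays of high enzyme signal, and it ran from 0 to 1 with each array left out, with 1 reached without STZ, SD replicate 6. In STZ, BEZ vs Con, SD it was 1 (Chga) with SAM and 1 with the exact permutation test, and in STZ, BEZ vs STZ, SD it stayed at 0 in every alternative run. The filter on dim genes left 4 of the 9 islet genes to test.

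Of 27 differences of islet genes between groups, 20 changed sign under at least 1 alternative, and 2, both of Chga, were called under at least 1. With array weights, STZ, SD vs Con, SD gave -0.052 for Ins2, -0.032 for Gcg and -0.20 for Chga, and STZ, BEZ vs STZ, SD gave 0.14 for Ins2. Without the 5 arrays, STZ, SD vs Con, SD gave -0.17 for Ins2, -0.13 for Gcg and -0.30 for Chga, and STZ, BEZ vs Con, SD gave -0.19 for Ins2, where STZ, BEZ is replicate 5 alone (n = 1) and is assumed to vary like the other groups. With each array left out in turn, STZ, SD vs Con, SD ran from -0.17 to 0.54 for Ins2, from -0.13 to 0.89 for Gcg and from -0.30 to 0.34 for Chga. STZ, BEZ vs STZ, SD ran from -0.46 to 0.26 for Ins2 and from -0.96 to 0.066 for Gcg, and STZ, BEZ vs Con, SD from -0.059 to 0.16 for Ins2, with the lowest value without STZ, BEZ replicate 1. Apart from the arrays left out, the cause was not tested.

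The replicate numbers were taken only to name the mice. Deviations of 16 same-numbered pairs correlated from -0.36 to 0.70, with the highest value for replicate 3 of Con, SD and STZ, SD. Pairs with different numbers were not correlated, so these values cannot decide whether the numbers mark a pairing. With the replicate number as a block, Chga in STZ, BEZ vs Con, SD was 0.069, and the block changed no call of an islet gene. The block ended the calls of Rbp4, Scg5, Cpe and Isl1 (limma adjusted p = 0.157, 0.167, 0.147 and 0.125), as did a fit on the 2 groups compared. In the 18 fits without 1 array they were called in 17, 5, 3 and 9, and Rbp4 lost its call without STZ, SD replicate 4. The Con, SD mean was 5.22 for Slc30a8 and 4.95 for Iapp, both near the lower end of the scale. Why Slc30a8 stayed flat on STZ, SD replicate 6 was not tested.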
